A study of Homo sapiens with 28 samples.

Results

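The SUPT16H knockdown comprised 3 arrays, each of HEK293 cells with a different short hairpin RNA (shRNA) against SUPT16H, and it was set against 2 control arrays of cells that carried a hairpin against bacterial lacZ, a sequence without a match in human cells. These 5 of the 28 arrays of the study were chosen by their labels. HEK293 is a human embryonic kidney line that carries adenoviral E1 genes. All cells, controls included, received 20 µL of lentivirus in which the U6 promoter drives the hairpin, were kept in puromycin at 2 µg/ml for 6 days and were lysed for total RNA. The study kept the most effective of the hairpins it tried for a gene, and it lists a single lacZ hairpin. Levels were read on Affymetrix Human Gene ST1.0 arrays, which probe whole transcripts, and are given as log2 of the deposited intensity, so that a difference of 1 is a doubling. The 9 arrays of cells with hairpins against PABPC1, PARP1 or PRKDC, 3 for each, were made in the same series of 14 arrays and served to show which changes the SUPT16H arrays shared with other knockdowns.

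SUPT16H and SSRP1 form FACT, a histone chaperone that loosens nucleosomes ahead of RNA polymerase II and restores them behind it. FACT also acts in DNA replication and repair, and SUPT16H has been found in complexes with DNA-PK (whose catalytic subunit is PRKDC), PARP1 and the transcriptional regulator AIRE. PABPC1 is the main cytoplasmic poly(A)-binding protein. The comparison with lacZ asked which transcripts changed when a FACT subunit was lowered, and that with the other knockdowns asked which of these changes were particular to SUPT16H.

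Of a further lacZ array in the first series, the values differed from those of lacZ replicate 2 by less than the noise between arrays (SD over probesets 0.07), so it was read as the same array and not used in the differences. lacZ replicates 2 and 3 differed from each other with an SD of 0.28, and 36 of 18417 genes lay over 1 log2 unit apart. The SUPT16H hairpins differed among themselves with SDs of 0.28 to 0.36. Median intensities of the second-series arrays were 54.5 to 58.3. Whether the lacZ arrays stand for separate cultures is not given in the labels, so the spread between them may in part be technical. The fit pooled the variance of a gene over all arrays of the study, hairpins against other targets in both series included. Standard errors and p-values thus measure mostly the spread between hairpins for those other targets, rather than within the SUPT16H and lacZ groups. With the second series fitted alone, the standard error of the SUPT16H difference from lacZ was 0.15 instead of 0.21. The number of arrays limits the precision. Of 18 genes typical of HEK293 and embryonic kidney, 15 lay above the median gene in the lacZ arrays, against 2 of 17 blood cell, 2 of 14 fibroblast, 2 of 14 keratinocyte and 3 of 17 neuron markers.

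The target was lowered by each hairpin. SUPT16H (probeset 7977674) read 7.81, 7.78 and 7.65 with hairpins 1, 2 and 3, and 9.95 and 9.61 on the lacZ arrays. In the other 9 knockdown arrays it ran from 9.15 through a median of 9.44 to 9.69. No hairpin array came near either set of controls. The transcript was left at 25.5%, 25% and 22.8% of the lacZ mean, a fall of 2.03 ± 0.21 on the log2 scale (difference ± standard error of limma, n = 3 hairpins and 2 controls, adjusted p = 9.95e-07, 95% interval -2.46 to -1.61). Against the mean of the other knockdowns it fell by 1.70 ± 0.15 (adjusted p = 4.09e-07). The primers with which the study measured SUPT16H by real-time PCR when it chose hairpins are printed because the hairpin sequences themselves were not used here, in lower case as the study lists them.
SUPT16H forward primer: tttagggacttgggatttaacg
SUPT16H reverse primer: tccaatgtcaccacaaaagg

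SSRP1, the other FACT subunit (probeset 7948192), read 9.55, 9.42 and 9.23 with the hairpins and 9.44 and 9.35 in lacZ. The groups overlapped, and the difference was 0.01 ± 0.21 (adjusted p = 0.981), with a 95% interval of -0.43 to 0.45 that leaves room for a modest change in either direction. Against the other knockdowns it was 0.04 ± 0.16 (adjusted p = 0.976). The transcripts of the other hairpin targets, PABPC1, PARP1 and PRKDC, differed from lacZ in SUPT16H cells by 0.18 ± 0.20, 0.10 ± 0.18 and -0.44 ± 0.23, and none passed the test (adjusted p = 0.534, 0.731 and 0.208).

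**Figure D1:**
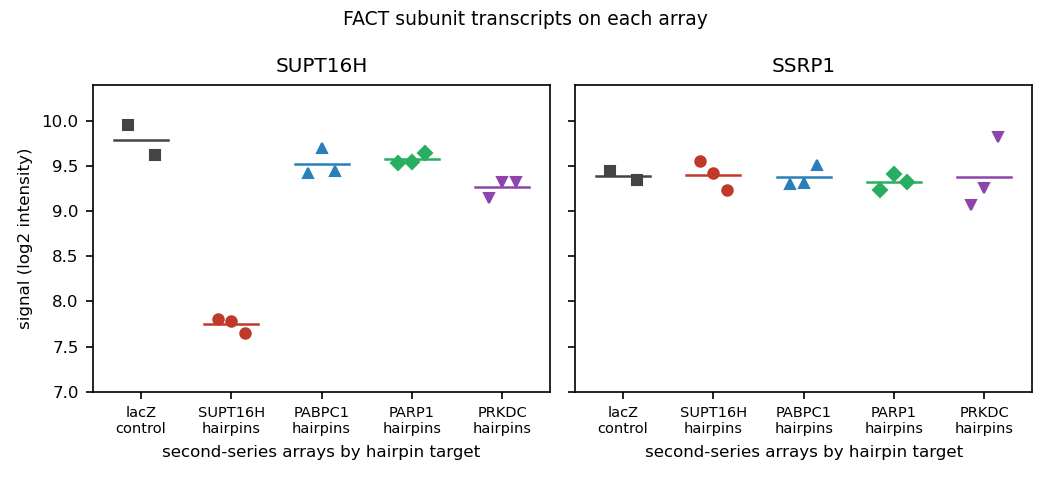
Signal of SUPT16H and SSRP1 (log2 intensity) on each of the 14 second-series arrays, grouped by hairpin target, with a line at each group mean. The 3 SUPT16H hairpin arrays sit at 7.65 to 7.81 for SUPT16H, below all other arrays, while SSRP1 overlaps between all groups.

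Against lacZ, 1756 of 18417 genes (9.53%) passed an adjusted p of 0.05, 695 higher (3.77%) and 1061 lower (5.76%). An unadjusted p under 0.05 was reached by 29.5% of genes. In 1754 of the called genes the 3 hairpins and the 2 controls did not overlap, but this held for 57.1% of all genes, so that a lack of overlap was common. Larger changes were mostly falls: of the 377 called genes over 1 log2 unit, 53 rose and 324 fell. The calls leaned on each control, since 178 genes were called without lacZ replicate 2 and 531 without lacZ replicate 3. There were 638 without SUPT16H hairpin 2, 1080 without hairpin 3 and 1189 without hairpin 1.

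The other knockdowns of the series were measured against the same 2 lacZ arrays, so that any error in these controls enters each comparison with lacZ alike, and changes shared by the knockdowns cannot be told apart from it. PABPC1, PARP1 and PRKDC hairpins gave 1060 (5.76%), 1002 (5.44%) and 6574 (35.7%) calls against lacZ. The genes called for SUPT16H differed from lacZ by a median of 0.74 in size, but from the mean of the other 3 knockdowns by only 0.15. Of the 377 genes over 1 log2 unit from lacZ, 3 were also over 1 log2 unit from the other knockdowns in the same direction, namely SUPT16H, NDRG1 and RFPL4A. Against the mean of the other knockdowns 2 genes were called (0.0109%), SUPT16H itself, which was lower, and PABPC1, which was higher and against which 3 of the 9 arrays carry hairpins (1.08 ± 0.14, adjusted p = 0.000671). An unadjusted p under 0.05 was reached by 1654 genes (8.98%). SUPT16H was thus the 1 gene called in both comparisons in the same direction.

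The highest rises against lacZ were small structural RNAs. SNORA62, a box H/ACA RNA of the kind that guides pseudouridylation of ribosomal RNA (probeset 8078918), read 10.54, 9.86 and 9.24 against 7.12 and 7.14, a rise of 2.75 ± 0.46 (adjusted p = 0.000609). VTRNA1-1, an RNA polymerase III transcript found in vault particles (probeset 8108627), read 9.18, 8.04 and 7.81 against 5.12 and 6.21, a rise of 2.68 ± 0.62 (adjusted p = 0.00934). Every hairpin array was above both controls for each of them. The related VTRNA1-3 rose by 1.98 ± 0.41, and the box H/ACA RNAs SNORA38, SNORA10 and SNORA75 rose by 2.02 ± 0.53, 1.92 ± 0.35 and 1.88 ± 0.37. RNU4-1, which encodes the U4 RNA of the spliceosome, rose by 1.88 ± 0.38, and SCARNA16 and SCARNA4, Cajal body RNAs that guide the modification of spliceosomal RNAs, rose by 1.92 ± 0.43 and 1.70 ± 0.46. The adjusted p-values of these 7 lay between 0.00169 and 0.0244. Without lacZ replicate 2 none of VTRNA1-1 and these 7 passed (adjusted p = 0.118 to 0.265), whereas SNORA62 did under every alternative tried (highest adjusted p = 0.0215).

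In the other knockdowns the same RNAs stood above lacZ as well. SNORA62 ran from 8.11 through a median of 9.0 to 10.31 on the 9 arrays, which overlaps the hairpins, and differed between SUPT16H and the others by 0.91 ± 0.34 (adjusted p = 0.413). For VTRNA1-1 that difference was 0.51 ± 0.45 (adjusted p = 0.8) and for SNORA75 it was 0.53 ± 0.27 (adjusted p = 0.574). Several of these RNAs are cut from introns of protein genes, and the host transcripts did not pass the test: NCL, which holds SNORA75, differed from lacZ by -0.08 ± 0.23 (adjusted p = 0.817), PRRC2A, which holds SNORA38, by -0.22 ± 0.19 (0.415), and RPS2, which holds SNORA10, by 0.21 ± 0.15 (0.353). These hosts were looked up after the values of the small RNAs were seen.

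Over the 213 small nuclear, nucleolar, Cajal body, vault and Y RNA genes measured, 26 rose and 2 fell, SNORA16B and SNORD20, against 3.77% and 5.76% of all genes. Their median difference was 0.41, beside 0.07 over all genes. By hairpin the median was 0.55, 0.62 and 0.15, so that hairpin 3 stood apart. The lacZ arrays also differed in these genes, with medians of -0.16 for replicate 2 and 0.16 for replicate 3 around their mean. In PABPC1, PARP1 and PRKDC knockdowns the median against lacZ was 0.31, 0.10 and 0.48. None of the 213 passed against the other knockdowns, from which the median difference was 0.11. With array weights SNORA62, SCARNA16, SNORA75 and SCARNA4 did pass, at 1.14, 0.70, 0.77 and 0.74 (adjusted p = 0.0125 to 0.0332). That setting called 1155 of 18417 genes in this comparison, where the main fit called 2. Leaving out lacZ replicate 2 left 1 of them called higher, and leaving out lacZ replicate 3 left 22.

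The other genes among the 12 highest rises code for proteins. CD99, a cell surface glycoprotein involved in adhesion (probeset 8165794), read 8.14, 8.34 and 8.20 against 6.04 and 6.26, a rise of 2.08 ± 0.18 (adjusted p = 5.81e-08). On the 9 other knockdown arrays it ran from 7.45 through 8.14 to 8.68, and the PABPC1, PARP1 and PRKDC knockdowns rose by 1.55, 2.26 and 1.97 against the same controls, so that the lacZ arrays were the ones set apart for this gene. MT1X, a metallothionein that binds zinc and copper, rose by 1.84 ± 0.39 (adjusted p = 0.00503), with readings of 8.98, 8.22 and 7.31 against 6.09 and 6.58. AMBN, the enamel matrix protein ameloblastin, rose by 1.81 ± 0.30 (adjusted p = 0.000575) from a low level of 4.58 and 4.22. The MT1X call was lost without lacZ replicate 2 (adjusted p = 0.14, from 0.000692 to 0.14 over its alternatives).

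Falls reached larger sizes. RFPL4A, a gene of the ret finger protein-like family known from oocytes (probeset 8031570), read 5.61, 4.94 and 6.41 against 9.86 and 9.92, the lowest difference of all at -4.23 ± 0.75 (adjusted p = 0.00114). The 9 other arrays spread from 5.15 through 6.34 to 9.36 for it, and the difference from them was -1.28 ± 0.55 (adjusted p = 0.502). REXO1L1P, a pseudogene of an exonuclease family (probeset 8151605), read 6.32, 6.30 and 7.33 against 10.32 and 9.59, a fall of 3.30 ± 0.34 (adjusted p = 1.2e-06). ERRFI1, which dampens EGF receptor signalling (probeset 7912157), read 7.08, 7.25 and 7.30 against 10.03 and 9.81, a fall of 2.71 ± 0.30 (adjusted p = 3.71e-06). PLK2, a polo-like kinase induced by growth signals and stress (probeset 8112202), read 5.96, 6.08 and 5.80 against 8.23 and 8.22, a fall of 2.28 ± 0.34 (adjusted p = 0.000181). All 3 hairpins lay below both controls in each case.

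Tissue-restricted genes were among the falls, with differences from lacZ of -2.92 ± 0.22 for the olfactory receptor gene OR2B6 and of -2.84 ± 0.23 and -2.43 ± 0.15 for the hair keratin-associated protein genes KRTAP19-1 and KRTAP21-2. Others were the zinc finger gene ZSCAN5B (-2.32 ± 0.17), the H2B pseudogene H2BC19P (-2.29 ± 0.30), the melatonin receptor relative GPR50 (-2.18 ± 0.25) and LSMEM1, a gene for a membrane protein (-2.07 ± 0.27). Their adjusted p-values lay between 2.2e-10 and 4.26e-05. Each of these 11 falls, RFPL4A included, kept its call under every alternative tried. On all 9 arrays of the other knockdowns each of the 11 also lay below the lacZ mean. OR2B6, at 3.75, 3.66 and 3.99 with the SUPT16H hairpins and 6.94 and 6.51 in lacZ, ran from 3.72 through 3.88 to 4.42 on the 9 other arrays. None of the 11 passed against the mean of the other knockdowns (adjusted p = 0.502 to 0.999), although RFPL4A did with array weights (-1.35, adjusted p = 0.038). Array weights called 1155 genes in that comparison. RFPL4A, REXO1L1P, the KRTAP genes and the histone genes belong to families of near-identical copies, whose probes may share signal.

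**Figure D2:**
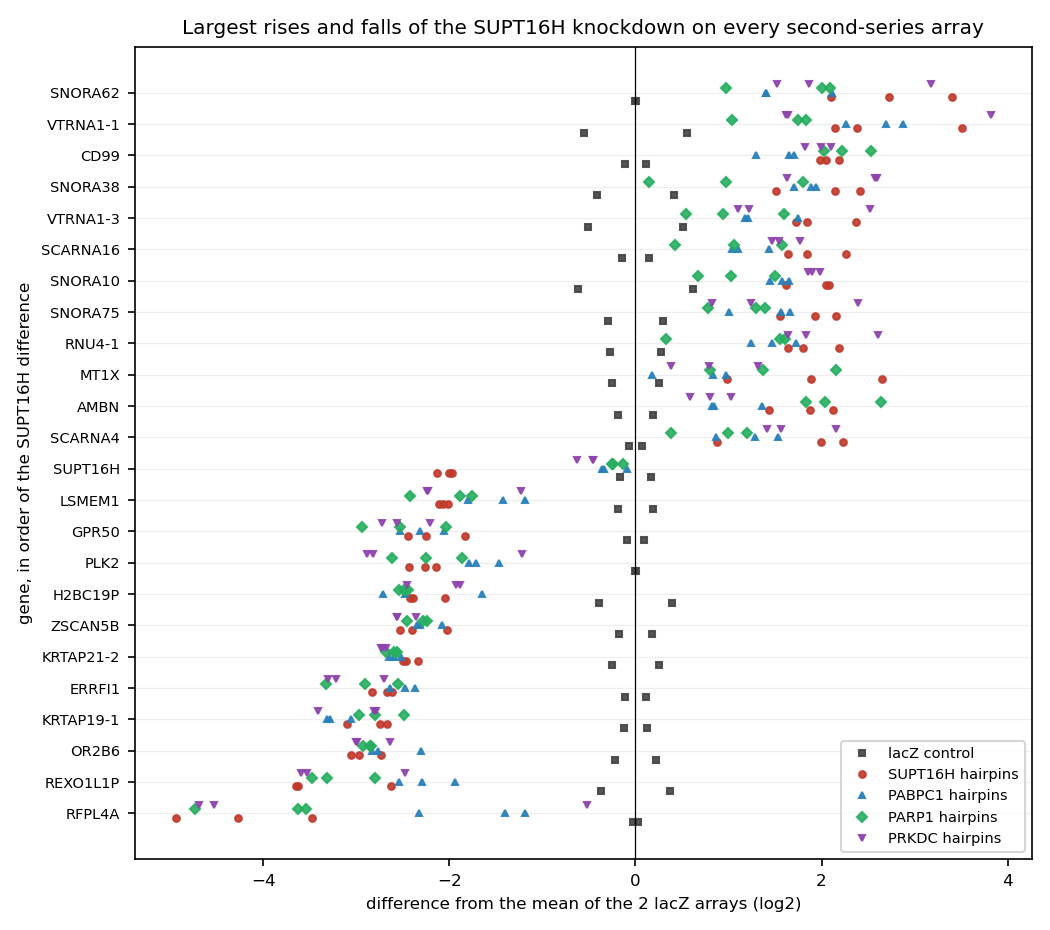
Difference from the mean of the 2 lacZ arrays (log2) on every second-series array for the 12 largest rises and 12 largest falls of the SUPT16H knockdown. The arrays of the other 3 knockdowns lie on the same side of 0 as the SUPT16H hairpins for all 24 genes, and for SUPT16H itself far nearer to 0.

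**Figure D3:**
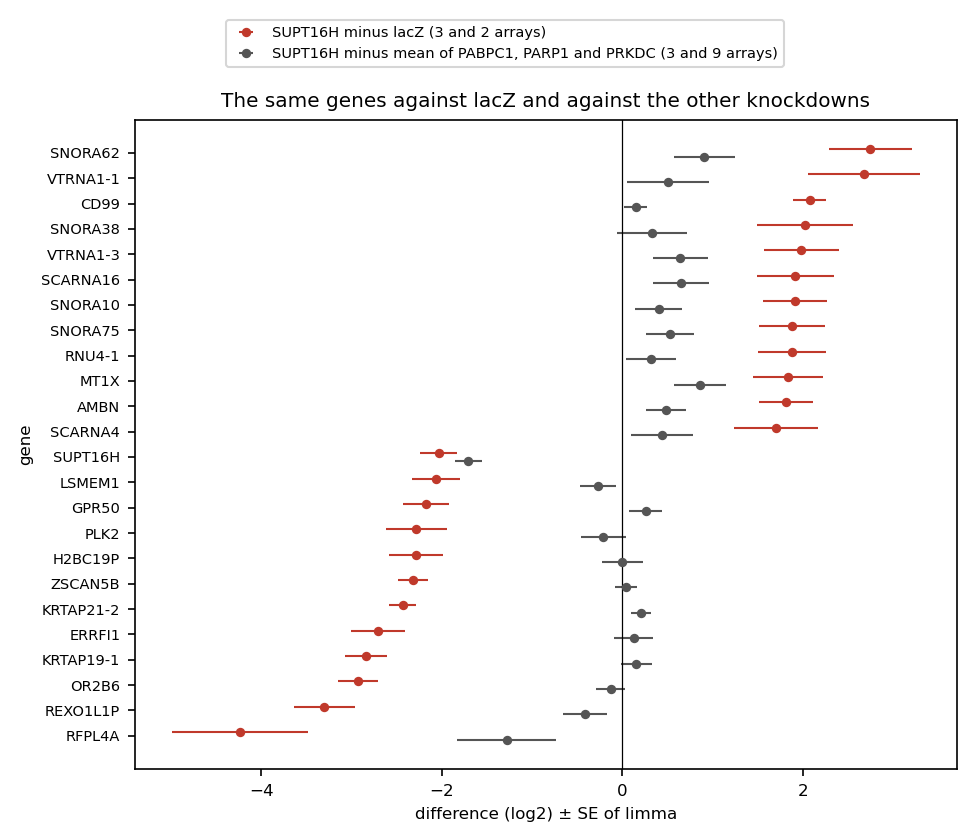
Difference ± SE of limma (log2) for the same 24 genes against lacZ and against the mean of the PABPC1, PARP1 and PRKDC arrays. SUPT16H keeps a difference of -1.70 against the other knockdowns, while the remaining 23 lie nearer to 0, RFPL4A the farthest at -1.28.

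Of 37 FACT subunits and histone chaperones measured, SUPT16H included, 4 fell and 2 rose (16.2% called, against 9.53% of all genes), with a median of -0.07. Besides SUPT16H the falls were ASF1B, which hands H3 and H4 to other chaperones (-0.98 ± 0.24, adjusted p = 0.013), UBN2 of the HIRA complex (-0.79 ± 0.21, adjusted p = 0.02) and SPTY2D1, an H3-H4 chaperone (-0.89 ± 0.29, adjusted p = 0.0496). ASF1B read 7.22, 7.40 and 7.99 against 8.41 and 8.63, and the others of the series ran from 7.37 to 8.11. The SPTY2D1 call was lost under 9 of 13 alternatives, among them median centring and quantile normalization (adjusted p = 0.0544 and 0.0688). Those of ASF1B and UBN2 were lost under 4 and 2. MCM2, a helicase subunit that also binds histones, rose by 0.65 ± 0.15 (adjusted p = 0.0108), with readings of 8.40, 8.20 and 8.16 against 7.46 and 7.76, and NAP1L3, a nucleosome assembly protein gene, rose by 0.62 ± 0.17 (adjusted p = 0.0262). The CAF-1 subunits CHAF1A and CHAF1B differed by 0.07 ± 0.17 and -0.07 ± 0.21, and SUPT6H, a chaperone that travels with the polymerase, by -0.41 ± 0.26. Apart from SUPT16H, no member passed against the other knockdowns. Omission of lacZ replicate 2 left 1 member called lower and none higher, and omission of replicate 3 left 2 and 2.

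Transcription elongation factors lay lower than lacZ more than most lists. Of 33 measured, 5 fell (15.2%) and 1 rose (3.03%), against 5.76% and 3.77% of all genes. The median was -0.38 against lacZ, but 0.04 against the other knockdowns. CDK13, a kinase of the polymerase tail, read 7.79, 7.80 and 8.15 against 9.25 and 8.87 and fell by 1.15 ± 0.23 (adjusted p = 0.00306). HEXIM1, which holds P-TEFb inactive, fell by 1.30 ± 0.25 (adjusted p = 0.00201), and SUPT5H, a subunit of the pausing and elongation factor DSIF, by 0.82 ± 0.17 (adjusted p = 0.00384). CTR9 of the PAF1 complex and AFF4 of the super elongation complex fell by 1.04 ± 0.32 and 0.73 ± 0.22 (adjusted p = 0.0414 and 0.0361), and ELOB, elongin B, rose by 0.63 ± 0.19 (adjusted p = 0.0338). The catalytic subunit of P-TEFb, CDK9, differed by 0.03 ± 0.14. Among 12 RNA polymerase II subunits, the large subunit gene POLR2A fell by 0.63 ± 0.18 (adjusted p = 0.0288). The elongation list held 2 calls without lacZ replicate 2 and 1 without replicate 3, all lower, and POLR2A did not pass without either of them.

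Replication-dependent histone genes included 11 falls and 2 rises among 53 measured (20.8% lower, against 5.76% of all genes), yet the list as a whole had a median of only -0.10. H2BC14 read 4.97, 4.68 and 4.89 against 6.40 and 6.27, a fall of 1.49 ± 0.19 (adjusted p = 2.37e-05). H3C11 read 7.26, 7.25 and 7.54 against 8.77 and 9.38, a fall of 1.73 ± 0.33 (adjusted p = 0.00219). H2BC17, H2AC17, H4C9 and H3C12 fell by 1.45 ± 0.21, 1.2 ± 0.18, 1.09 ± 0.18 and 0.89 ± 0.13. The 2 rises, H4C14 and H4C15 at 0.79, were a single signal, since their probesets held the same value on every array used. Against the mean of the other knockdowns 40 of the 53 had values below 0 and 13 above, with a median of -0.15 and no call. H2BC14 lay just below all 9 other arrays, whose lowest was 4.98. The list's medians against lacZ were 0.20 for PABPC1, -0.14 for PARP1 and 0.09 for PRKDC, and -0.06, -0.09 and -0.11 for the SUPT16H hairpins. Of 17 factors that process histone mRNAs, CASP8AP2, needed for histone transcription in S phase, fell by 1.27 ± 0.19 (adjusted p = 0.000178), and ZNF473, a protein of the U7 particle, fell by 1.11 ± 0.25 (adjusted p = 0.0087). Among 9 histone variant genes measured, H2AX rose by 0.89 ± 0.21 (adjusted p = 0.0123). With lacZ replicate 2 or 3 left out, 7 or 5 of the histone falls and no rise were called. The ZNF473 and H2AX calls were lost without lacZ replicate 2 (adjusted p = 0.202 and 0.26), and the H3C11 call without lacZ replicate 3 (0.0614).

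Core factors that cut and polyadenylate pre-mRNA were of interest because the study dealt with 3′ end processing. Of 23 measured, 3 fell (13%, against 5.76% of all genes) and none rose. The median was -0.27 against lacZ and 0.01 against the other knockdowns. PCF11, which couples cleavage to termination, read 7.53, 7.28 and 7.64 against 8.89 and 8.89 and fell by 1.41 ± 0.26 (adjusted p = 0.00156). CSTF3 and RBBP6 fell by 1.09 ± 0.26 and 0.93 ± 0.25 (adjusted p = 0.0123 and 0.0252), and both lost their calls without lacZ replicate 2.

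The cell cycle lists gave few calls in SUPT16H cells. Of 40 G2 and M phase genes 2 rose (5%, against 3.77% of all genes) and none fell. UBE2C, a ubiquitin-conjugating enzyme of the anaphase-promoting complex, rose by 0.72 ± 0.18 (adjusted p = 0.0184) and BIRC5, survivin, by 0.54 ± 0.14 (adjusted p = 0.0204). The median of this list was 0.04 against lacZ and 0.29 against the other knockdowns, from which 34 of 40 values were higher, with no call. Hairpin 3 differed from its companions here, with medians of 0.19, 0.24 and -0.28 for hairpins 1 to 3. Of 54 replication genes MCM2 and TK1 rose (3.7%) and CCNE2 fell (1.85%), against 3.77% and 5.76% of all genes. Of 26 p53 targets 3 fell (11.5%, against 5.76% of all genes) and none rose. PABPC1, PARP1 and PRKDC knockdowns had 5, 2 and 7 falls among these targets and 0, 1 and 3 rises. TIGAR, a regulator of glycolysis, led the SUPT16H falls (-1.57 ± 0.26, adjusted p = 0.000616). None of the calls of these 3 lists held without lacZ replicate 2.

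In DNA damage signalling and repair, 6 of 36 genes fell (16.7%, against 5.76% of all genes) and none rose. The list's median was -0.38 against lacZ and -0.02 against the other knockdowns. BRCA1 read 7.82, 7.75 and 7.87 against 8.83 and 8.62, a fall of 0.91 ± 0.21 (adjusted p = 0.00772). Its readings lay below the lowest of the 9 other knockdown arrays, 8.03, a position held by 183 of all genes (0.994%). No gene of the list passed against the other knockdowns. MDC1, a scaffold at DNA breaks, fell by 0.94 ± 0.21, the ligase LIG4 by 0.87 ± 0.22, the end-binding RAD50 by 0.89 ± 0.23, the nuclease DCLRE1C by 0.74 ± 0.20 and the kinase ATM by 0.90 ± 0.28. Each of these 6 calls was lost without lacZ replicate 2, with adjusted p = 0.123 to 0.34. Among 21 partners of the PRKDC, PARP1 and SUPT16H complexes, BAZ1B, a bromodomain protein, fell by 1.08 ± 0.19 (adjusted p = 0.00123).

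Of 40 ATF4 and unfolded protein response genes 8 fell (20%, against 5.76% of all genes) and none rose, with a median of -0.23. PSPH, the last enzyme of serine synthesis, fell by 1.06 ± 0.19 (adjusted p = 0.00108), and PPP1R15A, which directs the dephosphorylation of eIF2α, fell by 0.93 ± 0.17 (adjusted p = 0.00158). The hairpins were spread, with list medians of 0.09, -0.18 and -0.49. The medians in PABPC1, PARP1 and PRKDC knockdowns against lacZ were -0.62, -0.42 and -0.30. Of 34 immediate early genes 6 fell (17.6%), ERRFI1 first, then NR4A2 (-0.90 ± 0.18), ZFP36 (-0.85 ± 0.17), NR4A1 (-0.60 ± 0.13), CCN1 and FOSB, and 1 rose. In PABPC1, PARP1 and PRKDC knockdowns 5, 8 and 4 of the list fell against lacZ, and 0, 0 and 2 rose. Its median in SUPT16H cells was -0.14 against lacZ and 0.07 against the other knockdowns. Of 23 heat shock chaperones 4 fell (17.4%), among them DNAJB1, an HSP70 co-chaperone (-0.86 ± 0.24, adjusted p = 0.0254), and CRYAB rose. Interferon-stimulated genes showed 1 fall, IRF9, among 36. Without lacZ replicate 2 the ATF4 and immediate early lists held 2 falls each and the heat shock and interferon lists none, and without replicate 3 the falls numbered 2, 3, 1 and 0.

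The ribosome lists gave no call against the other knockdowns. RPL36 was the 1 gene of 57 cytosolic ribosomal proteins that rose against lacZ (0.75 ± 0.16, adjusted p = 0.00526). It read 10.19, 10.12 and 9.96 against 9.16 and 9.51, and the other knockdowns ran from 9.51 through 9.64 to 10.03. The list's median was 0.11 against lacZ and 0.29 against the other knockdowns, from which 55 of 57 values were higher, while the medians against lacZ were -0.31 for PABPC1, -0.04 for PARP1 and -0.30 for PRKDC. Of 37 nucleolar ribosome assembly genes 6 fell (16.2%, against 5.76% of all genes) and none rose. The methyltransferase NOP2 (-1.09 ± 0.23, adjusted p = 0.00491) and POLR1C, a subunit of RNA polymerases I and III (-1.0 ± 0.23, adjusted p = 0.00867), led the falls. None of the 6, nor RPL36, passed without lacZ replicate 2. Of 44 oxidative phosphorylation genes 4 rose (9.09%, against 3.77% of all genes), COX5B of complex IV by 1.2 ± 0.25, and none fell. These calls did not hold without lacZ replicate 2. PGK1, a glycolytic enzyme and the 1 housekeeping gene of 15 called, read 10.80, 10.50 and 10.14 against 9.34 and 9.24 and rose by 1.19 ± 0.23 (adjusted p = 0.00278).

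**Figure D4:**
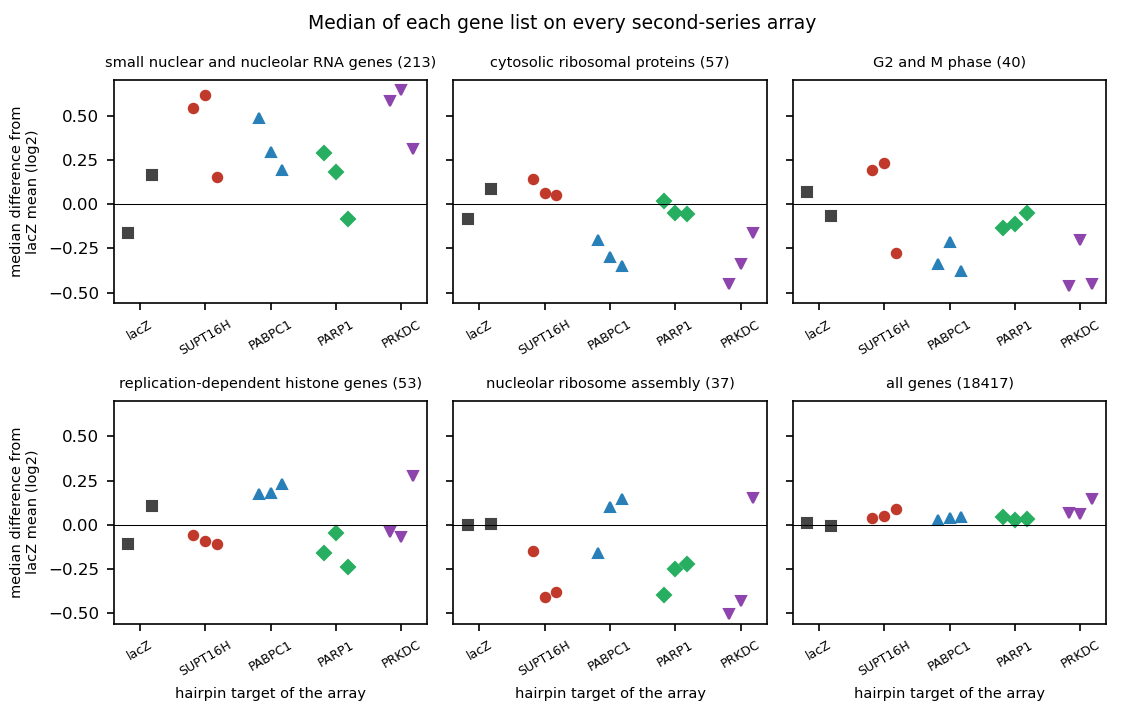
Median difference from the mean of the lacZ arrays (log2) over the members of 5 gene lists and over all genes, on each second-series array, with the number of genes in the title of each panel. Ribosomal protein medians lie at 0.05 to 0.14 on the SUPT16H arrays, and hairpin 3 departs from hairpins 1 and 2 in the small RNA and G2 and M phase panels.

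Families with restricted expression held many dim genes, and the difference from lacZ varied with signal level over all genes. Whether signal level accounts for the family differences was not tested. The median difference from lacZ was 0.16 in the dimmest tercile of all genes, 0.05 in the middle tercile and -0.11 in the brightest. Olfactory receptor genes, of which 358 of 361 were in the dimmest tercile, had a median of 0.20. Of them 36 were called higher (9.97%) and 5 lower (1.39%), against 5.15% and 3.55% of the dimmest tercile. OR2B6, at -2.92, was among the 5. Without SUPT16H hairpin 1, 2 or 3 the olfactory receptor rises numbered 25, 8 and 8, and they also leaned on each lacZ array. PABPC1, PARP1 and PRKDC knockdowns had 6, 1 and 107 rises in this family against lacZ. The family's median was 0.06 against the other knockdowns, with no call. The AIRE list holds genes with proximal poly(A) sites that the study lists as sensitive to AIRE in mouse thymic epithelium. They were matched to human genes by symbol. For its own knockdown arrays the study used genes found sensitive to AIRE in transfected HEK293 cells. Of 544 measured genes of the mouse list, 31 rose (5.7%) and 14 fell (2.57%), and 331 were in the dimmest tercile. Over all genes these shares were 3.77% and 5.76%, and over the dimmest tercile 5.15% and 3.55%. Their median was 0.20 against lacZ and 0.02 against the other knockdowns, with no call in the latter. PLK2 led the falls, followed by ABCC2, a canalicular drug transporter (-1.34 ± 0.21), SLC7A9, a cystine transporter (-1.04 ± 0.17), and FRZB, a secreted Wnt antagonist (-0.96 ± 0.18). PRKCB, a protein kinase C, rose by 0.83 ± 0.17, and the serotonin receptor gene HTR1A by 0.54 ± 0.11. With lacZ replicate 2 left out the AIRE list held 3 rises and 4 falls, and without replicate 3 it held 3 and 8.

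Zinc finger genes went the other way. Of 540 genes with ZNF, ZFP, ZSCAN or ZKSCAN symbols, 81 fell (15%) and 23 rose (4.26%), against 5.76% and 3.77% of all genes. Their median was -0.25 against lacZ and -0.06 against the other knockdowns. ZNF844 read 3.61, 3.71 and 3.70 against 5.74 and 5.36, a fall of 1.88 ± 0.20 (adjusted p = 1.71e-06). ZNF345, ZNF165 and ZNF394 fell by 1.49 ± 0.21, 1.24 ± 0.17 and 1.08 ± 0.15, and ZNF160 rose by 1.25 ± 0.18. The list held 10 falls and 4 rises without lacZ replicate 2, and 29 and 5 without replicate 3. Of 27 HOX genes 3 fell (11.1%, against 5.76% of all genes) and none rose. The falls were of HOXB6 by 1.18 ± 0.20, HOXC10 by 1.0 ± 0.17 and HOXB7 by 0.53 ± 0.15. Of 18 genes typical of HEK293, 3 neurofilament genes fell (16.7%, against 5.76% of all genes) and none rose. Values of the list split into 9 higher and 9 lower. NEFH was at 5.08, 4.99 and 5.25 against 7.16 and 6.62, a fall of 1.78 ± 0.21 (adjusted p = 1.02e-05). NEFL and INA, further neurofilament proteins, fell by 1.19 ± 0.27 and 1.61 ± 0.47. PABPC1, PARP1 and PRKDC knockdowns had 2, 2 and 6 falls in the HEK293 list and 0, 0 and 1 rises. Of 17 neuron markers only the RNA-binding protein ELAVL3 was called, lower by 1.61 ± 0.15 (adjusted p = 1.54e-07), and the median was 0.03. The same knockdowns had 2, 2 and 1 falls there and 0, 1 and 3 rises. Blood and fibroblast markers gave 4 calls: CD14 fell by 1.05 ± 0.21, and PPBP, PDGFRB and S100A4 rose by 0.47 to 0.62 from low levels. NEFL, INA, HOXB7 and these 4 markers lost their calls without lacZ replicate 2 (adjusted p = 0.0807 to 0.298). INA, HOXB7, PPBP, PDGFRB and S100A4 also lost them without lacZ replicate 3 (0.0919 to 0.185) and without at least 1 of the hairpins.

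Of 68 hair keratin-associated protein genes measured, 3 rose (4.41%) and 5 fell (7.35%), near the 3.77% and 5.76% of all genes. PABPC1, PARP1 and PRKDC knockdowns had 5 falls each against lacZ, and 0, 0 and 12 rises. The 5 falls with SUPT16H hairpins were of the KRTAP19 and KRTAP21 families. KRTAP19-8 and KRTAP19-5 were at -1.46 ± 0.15 and -1.22 ± 0.18 and KRTAP19-3 at -0.36 ± 0.12, beside the 2 already given. The rises were KRTAP10-12, KRTAP9-1 and KRTAP5-9 at 0.94, 0.70 and 0.47, none of them called without lacZ replicate 2. The list's median was 0.26, opposite in sign to its largest differences. Of 28 TGF-beta and matrix genes 3 rose (10.7%) and 2 fell (7.14%). SPARC, a matrix glycoprotein, and LOX, which cross-links collagen, were at 1.12 and 1.42 and the matrix protein THBS1 at -0.95. Of 42 protocadherin genes 3 rose (7.14%) and 1 fell (2.38%). Of 40 germline genes 2 rose (5%) and 4 fell (10%), RFPL4A among the falls. In NF-kappa-B targets CCL20 rose and CFLAR fell among 29, in cholesterol synthesis IDI1 fell among 18, and in pluripotency genes KLF5 fell among 19. The 8 transcripts targeted by other hairpins of the study gave no call, with a median of -0.20. Omitting lacZ replicate 2 left 4 falls among the keratin-associated genes and no call in the TGF-beta, protocadherin, cholesterol and pluripotency lists.

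**Figure D5:**
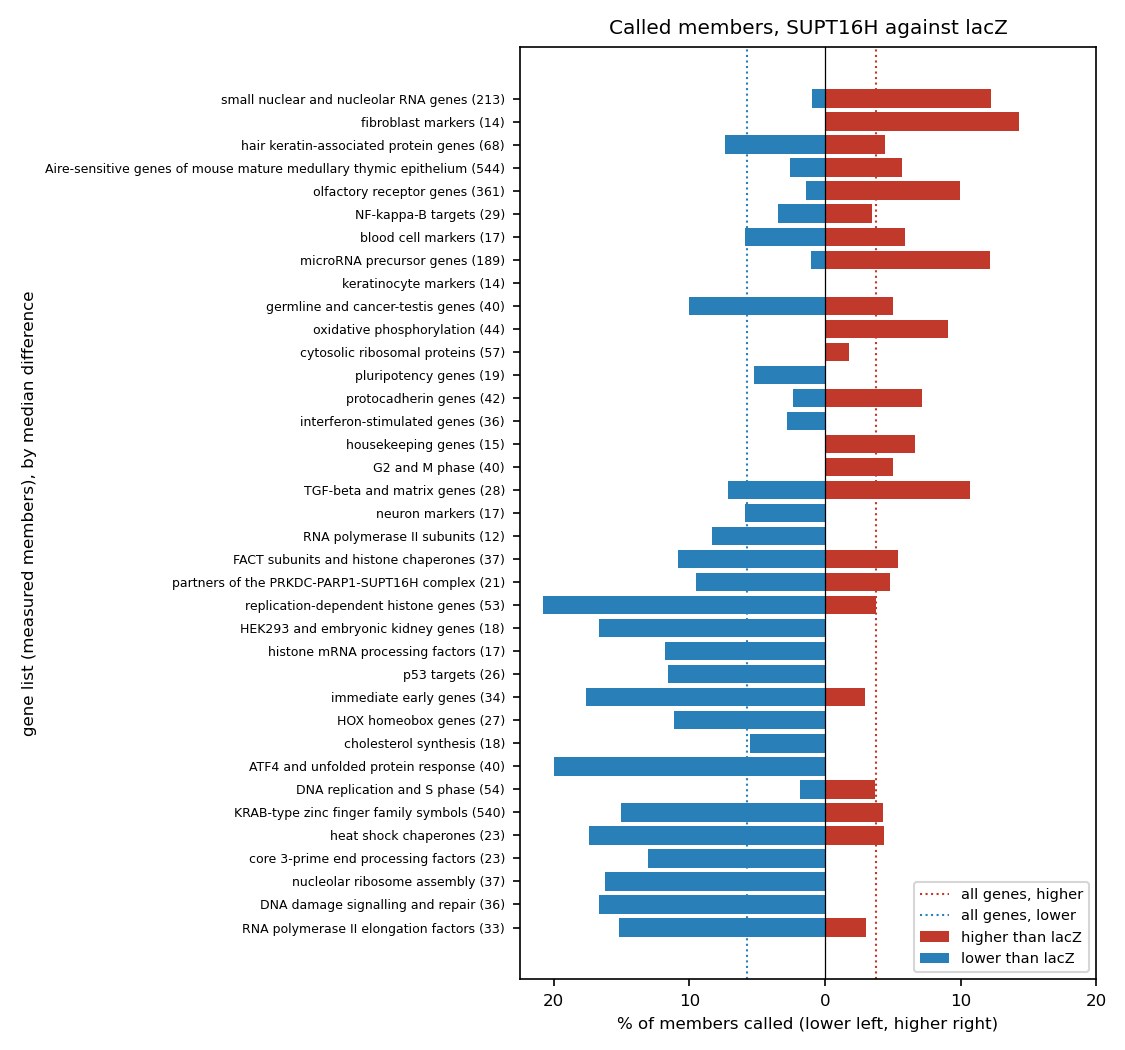
Share of the measured members of each gene list (number in brackets) called higher (right, red) or lower (left, blue) than lacZ at an adjusted p under 0.05, ordered by median difference, with dotted lines at the shares over all genes, 3.77% higher and 5.76% lower. Lists of 10 or more measured genes are drawn.

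Among 189 microRNA genes measured, 23 rose (12.2%) and 2 fell (1.06%). These shares were 3.77% and 5.76% over all genes, and 5.15% and 3.55% over the dimmest tercile. The median was 0.18, and 150 of the 189 lay in the dimmest tercile of genes. They were taken by symbol, so that the host gene MIR7-3HG is counted among the falls. In PABPC1, PARP1 and PRKDC knockdowns the median of the list against lacZ was 0.15, 0.09 and 0.24, with 2, 2 and 65 rises. From the other knockdowns the list's median difference was 0.02, with no call. The array reads the locus, precursor included, and not the mature microRNA alone. Mature sequences in RefSeq (GRCh38.p14) matched 24 of the 25 called genes, and a selection is printed because called genes shared seeds, the bases 2 to 8 that pair with targets, shown here in capitals.
hsa-let-7g-5p (MIRLET7G, chr3:52268336-52268357, minus strand): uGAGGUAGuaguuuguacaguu
hsa-let-7f-5p (MIRLET7F2, chrX:53557246-53557267, minus strand): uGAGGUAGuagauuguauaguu
hsa-miR-26a-5p (MIR26A1, chr3:37969413-37969434, plus strand, and MIR26A2, chr12:57824658-57824679, minus strand): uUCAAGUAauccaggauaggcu
hsa-miR-221-3p (MIR221, chrX:45746180-45746202, minus strand): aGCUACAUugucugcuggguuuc
hsa-miR-222-3p (MIR222, chrX:45747036-45747056, minus strand): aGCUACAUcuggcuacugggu

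The let-7 pair with 1 seed was called in opposite directions. MIRLET7G, which lies within WDR82, read 3.72, 3.74 and 3.81 against 4.48 and 4.52, below the 3.84 that was the lowest of the 9 other knockdown arrays. It fell by 0.75 ± 0.18 against lacZ (adjusted p = 0.0128) and differed by -0.27 ± 0.13 from the other knockdowns (adjusted p = 0.563). MIRLET7F2 rose by 0.40 ± 0.13 (adjusted p = 0.049) from near the floor of the arrays, at percentile 0.6 of genes in lacZ. From the other knockdowns it differed by -0.03 ± 0.09 (adjusted p = 0.969). WDR82 differed from lacZ by 0.42 ± 0.23 (adjusted p = 0.225). The pair with the seed of miR-221 rose together, MIR221 by 0.46 ± 0.14 and MIR222 by 0.30 ± 0.09 (adjusted p = 0.043 and 0.0458), as did MIR26A1 and MIR26A2, which give the same mature sequence, by 0.55 ± 0.16 and 0.36 ± 0.11 (adjusted p = 0.0318 and 0.0405). From the other knockdowns MIR221 and MIR222 differed by -0.07 and 0.05, and MIR26A1 and MIR26A2 by 0.26 and 0.08, with no call. MIR222 and MIR26A2 also lay near the floor, at percentiles 3.2 and 3.5 of genes in lacZ. MIR296 and MIR9-1 had the highest rises among those with the smallest p, 0.94 ± 0.21 and 0.71 ± 0.17. MIR7-3HG, the host gene of a further microRNA, fell by 2.03 ± 0.30 (adjusted p = 0.000136). None of the 23 microRNA rises was called without lacZ replicate 2, and the MIRLET7G call was lost without either control (adjusted p = 0.132 and 0.0859).

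The genes closest to the threshold against the other knockdowns were looked at next, a choice made after the values were seen. None passed in the fit described, though each of those named here passed under some alternatives. CKS1B, a cofactor of cyclin-dependent kinases, read 10.99, 10.97 and 10.28 with the hairpins, 10.34 and 10.45 in lacZ and 9.47 through 10.09 to 10.30 in the other knockdowns, a difference of 0.84 ± 0.15 from the latter (adjusted p = 0.0609) and of 0.35 ± 0.21 from lacZ (adjusted p = 0.255). Hairpins 1 and 2 lay above the others and hairpin 3 within their range. CKS1B passed under 7 alternatives, among them without hairpin 3 (adjusted p = 0.00285), with no intensity trend (0.0379), without the dimmest tercile (0.0425) and with hairpin number as a block (0.0205). That block has no basis in the design, since hairpin numbers name unrelated sequences. NDRG1, a gene induced by hypoxia and differentiation, read 9.89, 9.56 and 9.38, above 8.28 and 8.38 in lacZ and above all other knockdown arrays, which ran from 6.93 through 8.79 to 9.29. It rose by 1.28 ± 0.30 against lacZ (adjusted p = 0.0108) and differed by 1.13 ± 0.22 from the other knockdowns (adjusted p = 0.0609). ODAD4, a docking protein of ciliary dynein arms, read 4.45, 4.36 and 4.5, below every lacZ and other knockdown array, and differed by -0.48 ± 0.12 from lacZ (adjusted p = 0.0141) and by -0.45 ± 0.09 from the others (adjusted p = 0.0609). USP40, a deubiquitinase, and the pseudogene C22orf46P lay below all 9 others too, by 0.78 ± 0.16 and 0.76 ± 0.15 in size of the difference (adjusted p = 0.071 and 0.0609). USP40 passed with the second series fitted alone (adjusted p = 0.0207) and with quantile normalization (0.0267), and both passed with the block (0.0205). Without PRKDC arrays in the mean, NDRG1, ODAD4, USP40 and C22orf46P passed as well, with adjusted p = 0.0152 to 0.0306, and with array weights all 5 did. Over all genes these settings called 45 and 1155. Over all genes, 335 (1.82%) had the 3 hairpins outside the range of the 9 other arrays, 152 above (0.825%) and 183 below (0.994%). The NDRG1 and ODAD4 calls against lacZ were each lost without lacZ replicate 2 and without lacZ replicate 3. The ODAD4 call was also lost without SUPT16H hairpin 2 (adjusted p = 0.0616).

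Larger differences from the other knockdowns came with wide spread. CGA, the glycoprotein hormone alpha chain, read 7.22, 6.67 and 8.73 with the SUPT16H hairpins, 9.47 and 9.66 in lacZ and 5.17 through 6.37 to 6.95 in the other knockdowns, a difference of 1.52 ± 0.48 (adjusted p = 0.344) from the last. TXNIP, which binds thioredoxin and follows glucose, read 9.30, 9.69 and 8.57 against 6.26 through 7.61 to 9.05, a difference of 1.42 ± 0.40 (adjusted p = 0.259), and 7.70 and 7.59 in lacZ. Both were named after their values were seen.

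Taken against single knockdowns, SUPT16H arrays gave 64 calls against PABPC1 (0.348%), 26 against PARP1 (0.141%) and 2 against PRKDC (0.0109%), the latter SUPT16H, lower, and PRKDC, higher (0.00543% each). Against PABPC1, 34 genes were higher (0.185%) and 30 lower (0.163%). The glycolytic enzyme genes PGK1 and ENO2 were higher by 1.09 and 1.21, GPC3, a glypican, by 1.5, and SAT1, which acetylates polyamines, by 1.54, while the ribosome assembly factor UTP20 was lower by 1.62 ± 0.36 (adjusted p = 0.0479) and the histone genes H2AC12 and H2AC15 by 1.32 and 1.19. Against PARP1, 4 genes were higher (0.0217%) and 22 lower (0.119%), among the latter ACTA2, smooth muscle actin, and the microtubule-associated MAP2. ENO2, GPC3, SAT1, H2AC12, H2AC15, ACTA2 and MAP2 were picked from the calls after their values were seen. Without SUPT16H hairpin 1 the calls numbered 13 against PABPC1 and 7 against PARP1, without hairpin 2 they numbered 9 and 3, and without hairpin 3 there were 107 against PABPC1.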

How the data were processed

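RNA was labelled with random primers and hybridised to Human Gene ST1.0 arrays. The authors used robust multi-array averaging (RMA) to turn scans into the deposited intensity values, which are on a linear scale. That the 2 series were normalized apart was inferred from the lacZ array that appears in both. The version of the RMA software is not given in the sources used here. Of 33252 probesets, 19460 had exactly 1 symbol, and the brightest of each gene by its mean gave 18417 genes, which were taken to log2 with no filter. limma 3.58.1 in R 4.3.3 fitted all 28 arrays with a coefficient per target and a series term, and variances were moderated with an intensity trend. Benjamini-Hochberg adjustment ran over all genes, and a gene was called under 0.05. The model was tested on simulated data. Tables and figures used Python 3.11.15.

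The members and lists were chosen with earlier results of these data known. Named genes are the target, SSRP1, the 12 largest rises and 12 largest falls called with no overlap, those beyond the other knockdowns, and at most 6 called members per list with the smallest p. Lists were written from general knowledge or by symbol, apart from the AIRE list, and were described by counts and medians. The alternatives were a fit of the second series alone, quantile normalization, median centring, a pseudocount of 16, no dimmest tercile, averaged probesets, no trend, array weights, each library left out, each knockdown left out of the mean, and a replicate block.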

Additional observations from a re-analysis of the deposited data

Results flagged for a closer look

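The test of the difference between knockdowns picked out genes named above or near the threshold against the other knockdowns. Against PABPC1, SUPT16H arrays were higher in NDRG1 (1.99, adjusted p = 0.000631), CKS1B (1.24, adjusted p = 0.00251) and PGK1 (1.09, adjusted p = 0.0235). They were lower in UTP20 (-1.62), RNVU1-4, a U1 variant gene (-1.19), NME5 (-0.95), H2BC14 (-0.87), ZSWIM5 (-0.82), ZNF29P (-0.53) and ODAD4 (-0.48), with adjusted p = 0.00719 to 0.0479 by limma. Against PARP1 they were lower in NME5, a protein of sperm tails and cilia (-1.06), C22orf46P (-0.98), TECPR2, a factor of autophagy (-0.84), DRC9 of the ciliary dynein regulatory complex (-0.81) and ZSWIM5 (-0.72), and higher in OR5M10 (0.61), with adjusted p = 0.0151 to 0.0357. Each group held 3 arrays.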

How the results depend on the processing

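Depth limits do not apply to arrays, and 2 lacZ arrays limit every value against lacZ. The fall of SUPT16H kept its direction and call under each of the 13 alternatives. The 1756 genes called against lacZ (695 higher, 1061 lower) became 4338 (2006 and 2332) with the second series fitted alone, 3024 (1347 and 1677) with quantile normalization and 6704 (3248 and 3456) with array weights, and 409 were higher with the dimmest tercile left out. With 1 library left out they numbered 178 to 1189 (27 to 471 higher, 151 to 758 lower). Calls were higher in 39.6% of cases, 15.2% without lacZ replicate 2 and 48.4% with array weights. Against the mean of the other knockdowns the 2 calls became 1155 with array weights, 10 with the replicate block, and 1, 5 and 45 without PABPC1, PARP1 or PRKDC in the mean, and 2 to 12 with 1 library left out. Genes called in both comparisons numbered 2 with the second series alone and with quantile normalization, 526 with array weights, and 1 to 5 with 1 library left out.

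Against single knockdowns, the 64 calls against PABPC1, 26 against PARP1 and 2 against PRKDC became 185, 183 and 217 with the second series alone, 189, 145 and 92 with quantile normalization, 2602, 2230 and 1740 with array weights, and 265, 160 and 127 with the replicate block. With 1 library left out they numbered 9 to 107 and 3 to 33 against PABPC1 and PARP1. The PARP1 count was 9 with the pseudocount and 13 without the dimmest tercile. The array weights ran from 0.23 for PRKDC hairpin 3 to 2.21 for PABPC1 hairpin 3. PRKDC hairpin 3 also departed from PRKDC hairpins 1 and 2 in some list medians, with 0.15 against -0.50 and -0.43 for nucleolar ribosome assembly. Hairpin numbers name unrelated sequences, and deviations of same-numbered hairpins correlated by -0.20 to 0.26. They were therefore not taken as pairs in the main fit, and only the replicate block used them. Of 153 named genes called against lacZ, 42 kept their call under every alternative and 0 changed direction. The cause of these changes was not tested. List medians within about 0.13 of 0 changed sign with quantile normalization for 6 lists: RNA polymerase II subunits, histone mRNA processing, germline, housekeeping, HEK293 and neuron genes.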
